A study of Mus musculus with 6 samples.

Results

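The Arg1-positive myeloid cells of mouse dorsal skin were 129 of the 34834 cells kept in 6 single-cell libraries. A cell belonged to them if it held at least 2 unique molecular identifiers (UMIs, tags that mark single captured transcripts) of Arg1 and at least 2 of Lyz2. It also had to hold no UMI of Cd207, Csf3r, Cd3d, Cd3e or Cd3g, the markers of Langerhans cells, neutrophils and T cells. Barcodes with fewer than 500 UMIs or 300 genes, or with over 10% mitochondrial UMIs, had been set aside before. The cells were thus chosen by the measured UMIs of Arg1, Lyz2 and these excluded genes, whose levels are given as a description only.

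Arginase 1, the product of Arg1, splits arginine into ornithine and urea, and so competes for arginine with the inducible nitric oxide synthase encoded by Nos2. Macrophages raise it in wounds and after interleukin-4, interleukin-13 or microbial signals, and ornithine then feeds polyamine and collagen synthesis. In skin, mature macrophages that carry complement C1q genes lie in the dermis, monocytes enter from the blood through the receptor Ccr2, and Lyz2, which encodes lysozyme, is shared by both and by neutrophils. Arg1 (ENSMUSG00000019987) lies on chromosome 10 at 24915221 to 24927484 on the minus strand of GRCm38, and Lyz2 (ENSMUSG00000069516) on the same chromosome and strand at 117277331 to 117282321.

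The series, whose title concerns skin macrophages and age, profiled dissociated whole dorsal skin of male wild-type C57BL/6 mice by droplet sequencing. Skin treated with PBMC-sec and untreated skin were taken at 8 weeks, at 26 weeks and at 52 weeks of age. Each of the 6 groups was 1 library from a pool of 3 animals, so age and treatment have no replicate. PBMC-sec is what peripheral blood mononuclear cells secrete after γ-irradiation. It was applied to skin ex vivo, whereas untreated skin was dissociated directly, so the secretome and the time outside the body cannot be told apart.

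The libraries kept 3686 to 9237 cells with median depths of 1128 to 4804 UMIs per cell. In the 8-week untreated library 3307 barcodes had near-identical profiles, and none of them was an Arg1-positive cell. Pairs of libraries shared 21 to 78 barcodes, and 5 Arg1-positive cells carried a barcode that another library also used for a cell, but in no case were both cells Arg1-positive. Tyrobp or Fcer1g, which encode signalling adaptors of myeloid cells, were detected in 123 of the 129 Arg1-positive cells (95.3%).

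Arg1-positive cells were found mainly at 52 weeks. At 8 weeks, 12 of 5459 cells in the PBMC-sec library were Arg1-positive (0.220%, 95% exact binomial interval 0.114 to 0.384), against 3 of 9237 in the untreated library (0.0325%, 0.00670 to 0.0949). Without the near-identical barcodes the untreated share was 3 of 5930 (0.0506%, 0.0104 to 0.148). At 26 weeks, 9 of 5924 cells were Arg1-positive with PBMC-sec (0.152%, 0.0695 to 0.288), against 1 of 5579 untreated (0.0179%, 0.000454 to 0.0998). At 52 weeks, 62 of 4949 cells were Arg1-positive with PBMC-sec (1.25%, 0.962 to 1.60), against 42 of 3686 untreated (1.14%, 0.822 to 1.54). The intervals cover counting error only. Both 52-week intervals lay above all 4 of the younger libraries, and they overlapped each other.

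Depth differed between libraries, and deeper cells meet a rule on UMIs more easily. With every cell thinned to 1000 UMIs, 17 of 4533 cells met the rule at 52 weeks with PBMC-sec (0.375%, 0.219 to 0.600), against 10 of 3090 untreated (0.324%, 0.155 to 0.594). The same thinning left 5 of 4534 cells (0.110%, 0.0358 to 0.257) at 8 weeks with PBMC-sec against 0 of 5191 untreated (0 to 0.0710), and 3 of 5244 (0.0572%, 0.0118 to 0.167) at 26 weeks with PBMC-sec against 0 of 4569 untreated (0 to 0.0807). At this matched depth the 8-week PBMC-sec interval overlapped both 52-week intervals, and the 26-week PBMC-sec interval overlapped the 52-week untreated one. The untreated intervals at 8 and 26 weeks stayed below both 52-week intervals. Arg1-positive cells were also set against 94 Arg1-negative myeloid cells, which held at least 2 Lyz2 UMIs, at least 1 UMI of Tyrobp or Fcer1g, no Arg1 UMI and none of the excluded genes. Of both populations together, Arg1-positive cells made up 41.4% (23.5 to 61.1) at 8 weeks with PBMC-sec and 33.3% (7.49 to 70.1) untreated. At 26 weeks they made up 45.0% (23.1 to 68.5) with PBMC-sec and 16.7% (0.421 to 64.1) untreated. At 52 weeks they made up 66.7% (56.1 to 76.1) with PBMC-sec and 63.6% (50.9 to 75.1) untreated. All 4 intervals at 8 and 26 weeks overlapped both of those at 52 weeks.

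**Figure D1:**
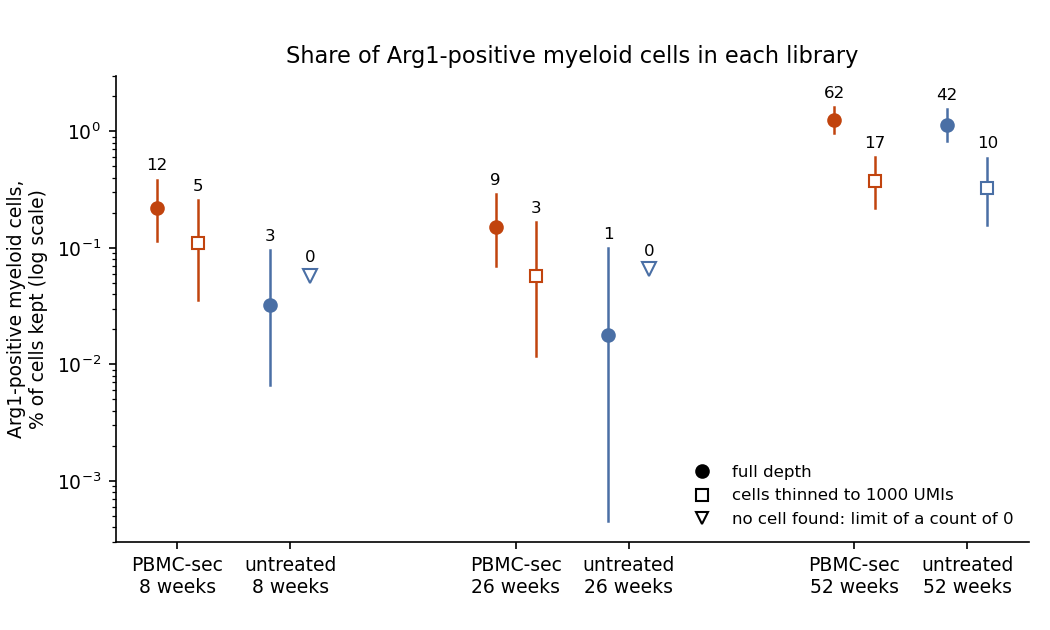
Arg1-positive myeloid cells as a percentage of the cells kept in each library, on a log axis, with exact binomial 95% intervals and the number of Arg1-positive cells above each point; filled circles are at full depth, open squares after thinning to 1000 UMIs, and open triangles mark the limit that a count of 0 allows. The 52-week points, 1.25% with PBMC-sec and 1.14% untreated, stand above the 8-week and 26-week points at full depth.

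The threshold on Lyz2 set the size of the population more than that on Arg1. Among the 129 cells, 46 sat at the lowest allowed value of 2 UMIs for Arg1 or Lyz2. Just outside, 28 cells had 1 Arg1 UMI and enough Lyz2, 47 had enough Arg1 and 1 Lyz2 UMI, and 249 had enough Arg1 and no Lyz2. Of the 135 cells past both thresholds, 1 was removed for Cd207, 5 for Csf3r and 0 for the Cd3 genes. Without the Lyz2 condition, and with Tyrobp or Fcer1g required instead, 160 cells (3.23%) at 52 weeks with PBMC-sec and 160 cells (4.34%) untreated carried Arg1, so that the order of the 52-week shares turned round.

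The 129 cells had a median of 6 Arg1 UMIs (range 2 to 168), 5 Lyz2 UMIs (2 to 92), 3866 UMIs in all (681 to 34431) and 1260 genes (374 to 4480). Levels are given as CPM, the UMIs of a gene scaled to a total of 1000000 UMIs over the summed cells. They count transcript 3′ ends and are compared between populations for the same gene, not between genes. Summed Arg1 was 3063 CPM at 8 weeks with PBMC-sec and 596 CPM untreated, 2601 and 4384 CPM at 26 weeks with PBMC-sec and untreated, and 2246 CPM at 52 weeks with PBMC-sec and 1970 CPM untreated. The 8-week untreated value came from 3 cells and the 26-week untreated value from 1. In T cells (median 1259 UMIs), 0 of 697 held an Arg1 UMI, which allows a share of up to 0.430%.

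By their marker genes most of the cells looked like macrophages, with some genes of the classical monocyte list and few of mast cells or granulocytes. All 16 macrophage markers were detected, and their summed level was 12606 CPM in Arg1-positive cells, with a range of 9086 to 18634 CPM over libraries. The same sum was 9367 CPM in Arg1-negative myeloid cells, 13627 CPM in C1q macrophages, 1475 CPM in Langerhans cells and 295 CPM in neutrophils. The list holds C1qa, C1qb and C1qc, by which C1q macrophages were chosen. C1q macrophages were 136 cells with at least 3 UMIs of C1qa, C1qb and C1qc together, no Arg1 UMI and none of the excluded genes, and 44 of them were also Arg1-negative myeloid cells.

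Among single macrophage markers, the chemokine gene Pf4 reached 7446 CPM, most of the summed level, and was detected in 86.8% of Arg1-positive cells. Apoe, which encodes a lipid carrier, was detected in 70.5%. The complement gene C1qb stood at 594 CPM and was detected in 51.2% of Arg1-positive cells (median 3866 UMIs), while 0.40% of keratinocytes, which should lack it and had a median of 4802 UMIs, held a UMI. The mannose receptor gene Mrc1 was detected in 46.5%, the folate receptor gene Folr2 in 43.4%, the macrophage growth factor receptor gene Csf1r in 51.9% and Adgre1, which encodes F4/80, in 39.5%. Any of C1qa, C1qb and C1qc was detected in 80 of 129 cells (62.0%, 53.1 to 70.4), and in 59 of 124 cells after thinning to 1000 UMIs (47.6%).

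Classical monocyte genes were split. Ly6c2, the defining surface antigen gene of blood monocytes, was detected in 5 of 129 cells (3.88%, 16 CPM), and Ccr2 in 6 cells (12 CPM). At least 1 of the pair was detected in 11 cells (8.53%, 4.33 to 14.7), of which 7 also held a C1q UMI, and 45 cells (34.9%) held neither C1q nor either of the pair. Hp stood at 7 CPM and Chil3 at 9 CPM. By contrast F13a1, a transglutaminase gene shared by monocytes and some resident macrophages, was detected in 50.4% of the cells at 236 CPM, Plac8 stood at 172 CPM, Fn1 at 177 CPM and Vcan at 94 CPM. All 10 classical monocyte markers together summed to 802 CPM in Arg1-positive cells, against 308 CPM in Arg1-negative myeloid cells and 254 CPM in C1q macrophages. Few genes of the list passed the filter on low counts, and those could pass through the Arg1-positive sums. Against Arg1-negative myeloid cells 4 were tested (F13a1, Fn1, Plac8 and Vcan), and 0 passed by adjusted p in edgeR's quasi-likelihood test. All 4 were higher in every library, but the filter favours genes high in Arg1-positive cells. Their direction is therefore a description only, and no unadjusted p or median difference is given. Against C1q macrophages 3 were tested, of which 2 were higher in every library. Fn1 was called, but it passed the filter through the Arg1-positive sums alone, so no median difference is given. The absence of Ly6c2 and Ccr2 in most cells is limited by depth, since few UMIs per cell were captured.

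Defining markers of several other lineages were at 0, but others were detected. Of the 12 dendritic cell markers 8 were detected, at a sum of 292 CPM, against 1428 CPM in C1q macrophages and 7875 CPM in Langerhans cells. Flt3, Xcr1, Clec9a and Ccr7 had 0 UMIs, and a class II gene (H2-Aa, H2-Ab1 or H2-Eb1) was detected in 48 of 129 cells (37.2%). Also at 0 UMIs were the mast cell genes Cpa3, Kit, Mcpt4, Fcer1a, Ms4a2 and Tpsb2. Over 129 cells a count of 0 allows a share of cells with a UMI of up to 2.33%. The neutrophil list summed to 374 CPM in Arg1-positive cells and to 30275 CPM in the 17 neutrophils, with Csf3r excluded by the rule, and S100a8 or S100a9 was detected in 31 of 129 Arg1-positive cells (24.0%). The Langerhans list summed to 1040 CPM in Arg1-positive cells and to 42620 CPM in Langerhans cells, the T or innate lymphoid cell list to 9 CPM against 8610 CPM in T cells, and the fibroblast list to 308 CPM against 19859 CPM in fibroblasts. Neutrophils were picked by Csf3r with S100a8 and S100a9, Langerhans cells by Cd207 and T cells by the Cd3 genes. Fibroblasts were picked by Col1a1, Col1a2 and Col3a1, and keratinocytes by Krt5 and Krt14. The rule left no UMI of Cd207, Csf3r or the Cd3 genes in Arg1-positive cells. Part of each contrast with these populations was therefore fixed by how the cells were chosen. The eosinophil list summed to 23 CPM, the mast cell list to 16 CPM and the basophil list to 1 CPM. Keratinocyte RNA was present. The keratinocyte list summed to 5783 CPM in Arg1-positive cells at 8 weeks with PBMC-sec, 4504 CPM at 52 weeks with PBMC-sec and 1816 CPM at 52 weeks untreated, against 35041 CPM in keratinocytes, and 73 of the 129 cells (56.6%) held a UMI of Krt5 or Krt14. At 52 weeks 1 cell with PBMC-sec held keratinocyte genes at 4.26% of its UMIs, and measures per cell ran the other way. The median share of keratinocyte UMIs per cell was 0.0332% with PBMC-sec and 0.211% untreated, and 21 of 62 cells with PBMC-sec held a UMI of Krt5 or Krt14, against 34 of 42 untreated. Of the keratinocyte list, 6 genes had enough UMIs for a 52-week ratio, and their median log2 ratio was 1.63 with that cell and -1.49 without it. The part of keratinocyte RNA in the results was not tested beyond the values given without the cells richest in it.

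**Figure D2:**
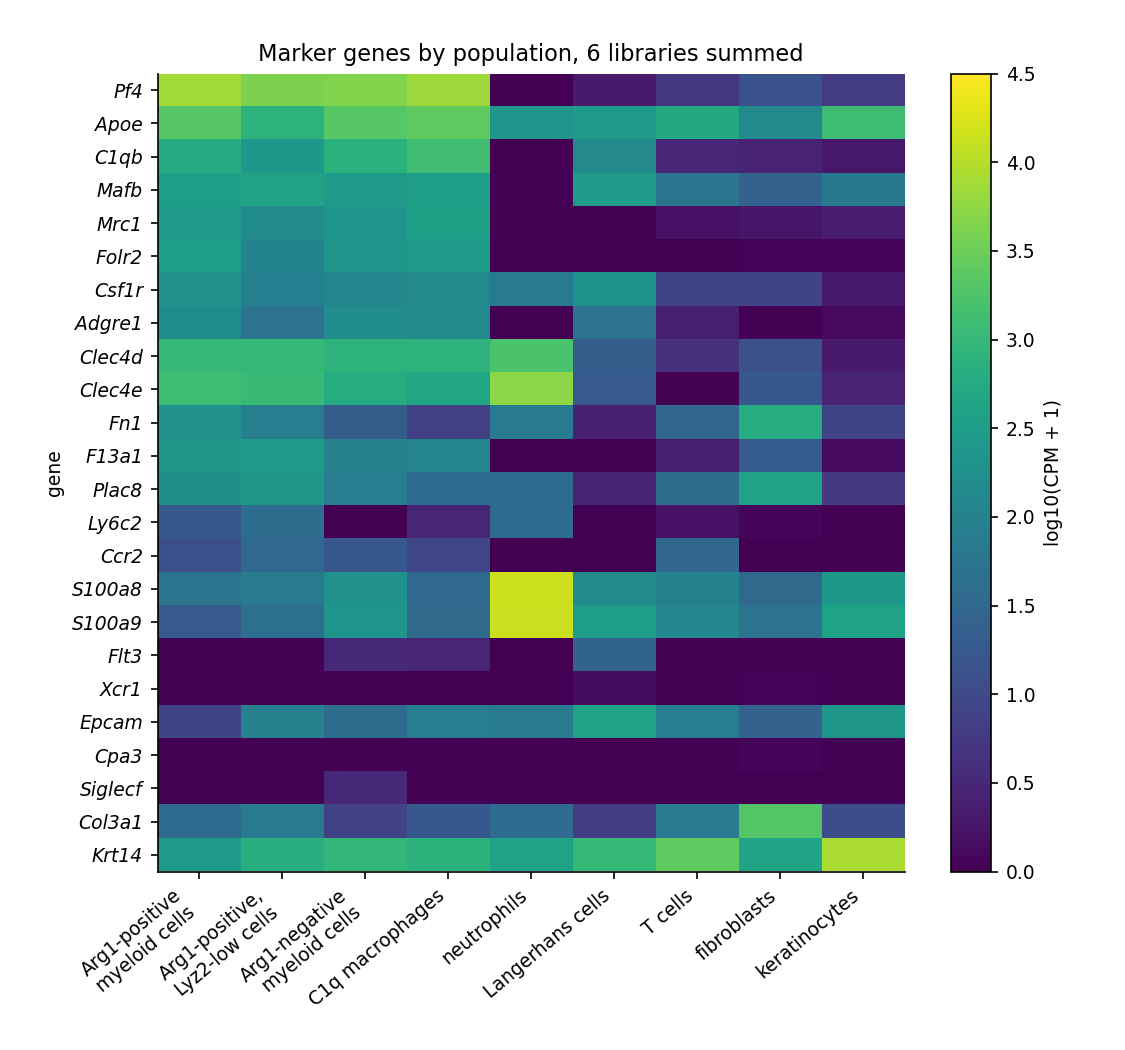
Marker gene levels as log10(CPM + 1), with the UMIs of all 6 libraries summed, for Arg1-positive myeloid cells and the other populations (columns) by gene (rows); brighter is higher. Pf4, Apoe and C1qb are bright in Arg1-positive cells and C1q macrophages, and S100a8 and S100a9 in neutrophils. Flt3, Xcr1 and Cpa3 are at 0 in Arg1-positive cells. C1qb helped define C1q macrophages, and S100a8 and S100a9 helped define neutrophils.

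Whole profiles were also compared. Across genes with a mean of at least 50 CPM over both populations, the summed log profile of Arg1-positive cells correlated with that of Arg1-positive cells low in Lyz2 at r = 0.875 (2307 genes), with C1q macrophages at r = 0.799 (2385 genes) and with Arg1-negative myeloid cells at r = 0.778 (2382 genes). The Il1b-rich cells among the Arg1-negative ones gave 0.703, fibroblasts 0.330, Langerhans cells 0.300, T cells 0.256, neutrophils 0.237 and keratinocytes 0.224. These are correlations across genes, which are not independent replicates, and the populations share libraries.

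Clec4d, which encodes a C-type lectin receptor (MCL) for mycobacterial glycolipid, was given as a marker of these cells with Arg1 and Lyz2. It lies on chromosome 6 at 123262111 to 123275265 on the plus strand of GRCm38. It was detected in 118 of 129 Arg1-positive cells (91.5%, 85.3 to 95.7), in 65.3% after thinning, and in 0.40% of keratinocytes. In the summed cells Clec4d stood at 660 CPM at 8 weeks, 1156 CPM at 26 weeks and 1054 CPM at 52 weeks with PBMC-sec, and at 1539, 1461 and 963 CPM at the same ages untreated. It did not set the cells apart from other skin macrophages. Against C1q macrophages, Clec4d was 660 CPM in Arg1-positive cells and 1013 CPM in C1q macrophages at 8 weeks with PBMC-sec, 963 and 821 CPM in the same order at 52 weeks untreated, and 1054 and 665 CPM at 52 weeks with PBMC-sec. The ranges overlapped, and the log2 difference was 0.32 ± 0.31 (SE; adjusted p = 0.651, edgeR's quasi-likelihood test with Benjamini-Hochberg adjustment). Its partner receptor gene Clec4e (Mincle) was at 1266 CPM over all Arg1-positive cells and 1.31 ± 0.26 higher on the log2 scale than in C1q macrophages, which did not pass the threshold (adjusted p = 0.0592, same test).

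Genes of the inflammatory cytokine and chemokine list, which also holds enzyme genes, were 9 of the 22 that rose in Arg1-positive cells against C1q macrophages. Slpi and Thbs1 also rose. The test used the 3 libraries with at least 10 cells of each population (PBMC-sec at 8 weeks and both libraries at 52 weeks, with 116 against 87 cells), with library as a block. Of 2085 genes tested, 22 rose in Arg1-positive cells (1.06%) and 4 fell (0.192%) at an adjusted p under 0.05, and 341 (16.4%) had an unadjusted p under 0.05. The p-values measure the spread between these 3 libraries, which differ in age and treatment. The median log2 difference over all genes was 0.01.

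Slpi, which encodes a secreted inhibitor of neutrophil elastase and lies on chromosome 2 at 164354070 to 164389095, had the smallest p. It stood at 1901 CPM in Arg1-positive cells and 98 CPM in C1q macrophages at 8 weeks with PBMC-sec, 2765 against 220 CPM at 52 weeks untreated, and 4613 against 644 CPM at 52 weeks with PBMC-sec. The lowest Arg1-positive value was above the highest C1q macrophage value. The log2 difference was 3.55 ± 0.31 (SE, n = 3 libraries; adjusted p = 0.00461, edgeR's quasi-likelihood test with Benjamini-Hochberg adjustment). Slpi is also a keratinocyte product at 827 CPM in keratinocytes, and 64.3% of Arg1-positive cells held a UMI, against 21.6% of keratinocytes.

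The matrix gene Fn1, which encodes fibronectin, was nearly absent from C1q macrophages. It stood at 660 CPM in Arg1-positive cells and 0 CPM in C1q macrophages at 8 weeks with PBMC-sec, 72.3 against 0 CPM at 52 weeks untreated, and 173 against 10.6 CPM at 52 weeks with PBMC-sec. Every Arg1-positive sum was above every C1q macrophage sum. Fn1 is among the 22 genes called, but it passed the filter on low counts through the Arg1-positive sums alone, so its fitted difference and p are not given. Fibroblasts held 608 CPM of Fn1. The fibroblast list summed to 308 CPM in Arg1-positive cells and 433 CPM in C1q macrophages, and the part of fibroblast RNA in the Fn1 values was not tested. The UMIs came from few cells. Fn1 was detected in 23 of 129 Arg1-positive cells (17.8%), and the single cell with most Fn1 UMIs held 68.0% of them at 8 weeks with PBMC-sec, 40.0% at 52 weeks untreated and 35.3% at 52 weeks with PBMC-sec. Thbs1, which encodes the matricellular protein thrombospondin 1, was spread more widely. It stood at 4199 against 751 CPM, 1671 against 521 CPM and 2380 against 1070 CPM in the same library order, Arg1-positive cells first, with no overlap and a log2 difference of 1.88 ± 0.30 (adjusted p = 0.0369, same test). With Slpi these were the called genes among the 16 of 20 wound repair, matrix and proteolysis genes that passed the filter, and 0 of the 16 fell.

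Inflammatory cytokine and chemokine genes were higher as a group. Of the 20 listed genes all were tested, 9 rose and 0 fell, 18 had an unadjusted p under 0.05 and a positive difference (10.6% of all genes had), 17 were higher in Arg1-positive cells in every library (15.3% of all genes were), and their median log2 difference was 1.52. Il1a, which encodes interleukin-1α, stood at 898 CPM in Arg1-positive cells and 32.7 CPM in C1q macrophages at 8 weeks with PBMC-sec, 1050 against 167 CPM at 52 weeks untreated, and 1268 against 383 CPM at 52 weeks with PBMC-sec. The populations did not overlap, and the log2 difference was 2.63. Tnf was 3433 against 621 CPM, 2524 against 814 CPM and 2627 against 1187 CPM in the same order, a log2 difference of 1.84 with no overlap. The chemokine gene Ccl4 was 14048 against 5912 CPM, 14721 against 5266 CPM and 16149 against 3901 CPM, a log2 difference of 1.76 with no overlap. Cxcl3, which encodes a neutrophil attractant, was 17666 against 8133 CPM, 6508 against 941 CPM and 10792 against 4082 CPM. Its groups overlapped across libraries although Arg1-positive cells were higher within each (log2 1.92). Il6 was 52.8 against 0 CPM, 573 against 66.7 CPM and 446 against 117 CPM, again overlapping across libraries (log2 2.64). Each of these passed the threshold in edgeR's quasi-likelihood test with Benjamini-Hochberg adjustment, as did Ccl3, Cxcl1, Ptgs2, the prostaglandin synthase gene, and Acod1, which encodes the enzyme that makes itaconate. Il1b, at 5334 against 4834 CPM, 2230 against 247 CPM and 6388 against 2357 CPM, overlapped and did not pass (log2 1.70, adjusted p = 0.144, same test).

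**Figure D3:**
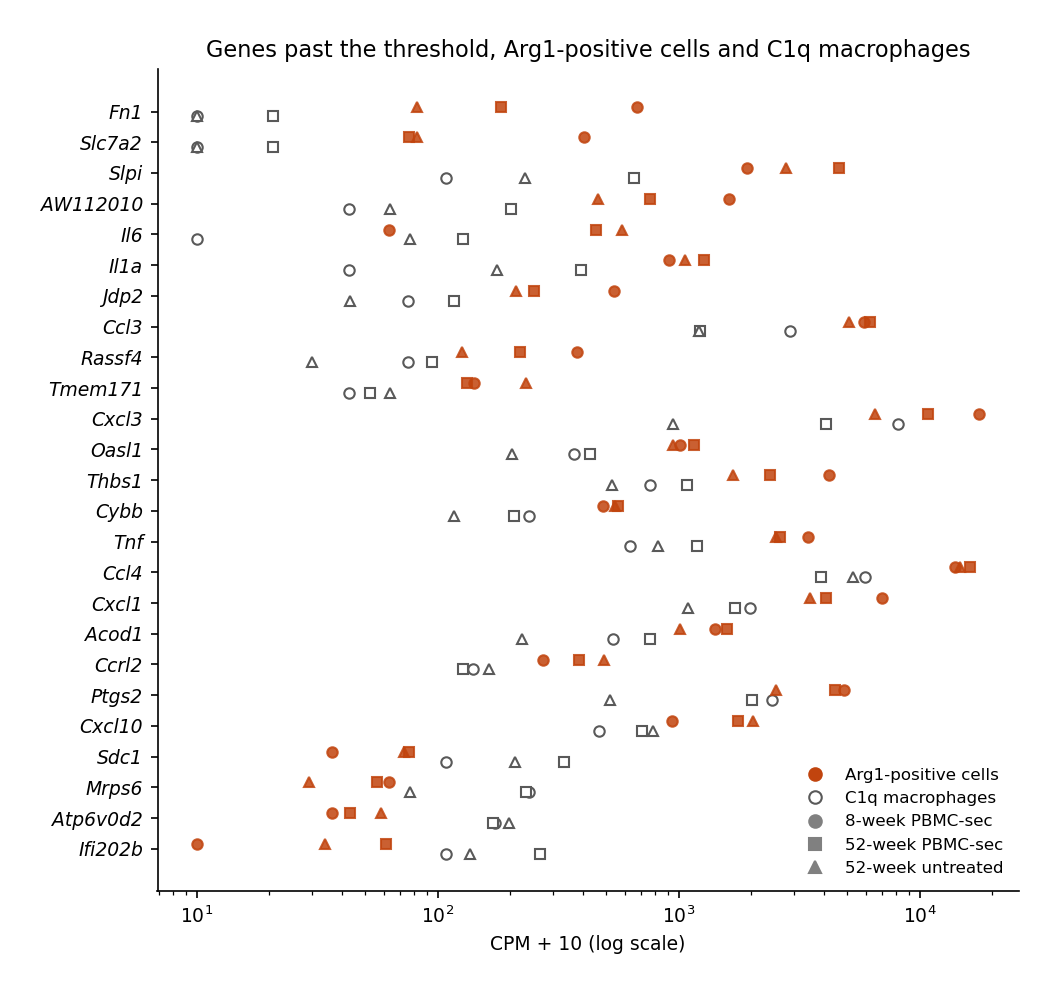
Summed levels as CPM + 10 on a log axis of genes past the threshold between Arg1-positive cells (filled) and C1q macrophages (open), 1 point per library, with the library given by the shape. For Slpi the filled points lie at 1901 to 4613 CPM and the open ones at 98 to 644 CPM; in the 4 genes at the bottom the filled points lie lower.

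Among the other genes that rose were the long non-coding RNA AW112010 (3.09), the transcription factor gene Jdp2 (2.09), and Cybb, which encodes a subunit of the phagocyte NADPH oxidase (1.84). Rassf4, Tmem171, Oasl1, Ccrl2 and Cxcl10 rose by 1.97, 1.94, 1.91, 1.71 and 1.43. The genes that fell were Ifi202b (log2 -2.22), Atp6v0d2 (-1.99), which encodes a subunit of the lysosomal proton pump, Mrps6 (-1.93) and Sdc1 (-1.85). Leaving out the 52-week untreated library left 0 genes past the threshold, whereas leaving out the 8-week PBMC-sec library gave 92 and leaving out the 52-week PBMC-sec library gave 68.

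The 2 populations were not separated by the macrophage markers themselves. Of 10 macrophage markers tested, without the C1q genes that defined one of the populations, 0 passed the threshold, 0 had an unadjusted p under 0.05, and the median log2 difference was 0.31 in edgeR's quasi-likelihood test. Pf4, for example, was 9533 CPM in Arg1-positive cells and 11106 CPM in C1q macrophages at 8 weeks with PBMC-sec, 7201 against 3985 CPM at 52 weeks untreated, and 7658 against 6327 CPM at 52 weeks with PBMC-sec, which overlapped. The antigen presentation genes of class II were lower without passing. Of 4 tested, 0 passed by adjusted p, 4 had an unadjusted p under 0.05, all lower in Arg1-positive cells, and their median was -2.10. H2-Ab1 was 106 against 555 CPM, 106 against 86.8 CPM and 76.4 against 1431 CPM in the same order, so the 52-week untreated pair ran the other way. The Langerhans cell list, which holds class II genes, summed to 1040 CPM in Arg1-positive cells and 7079 CPM in C1q macrophages over all libraries, and its part in this difference was not tested. Lipid and lysosome genes (17 tested, median -0.18) and glycolysis and hypoxia genes (22 tested, median 0.45) had 0 genes past the threshold, with 4 and 6 at an unadjusted p under 0.05 (16.4% of all genes were). Interferon genes had 1 past it, Cxcl10, of 12 tested, with 7 at an unadjusted p under 0.05, all higher, 7 higher in every library, and a median of 1.13. Immediate early and dissociation stress genes had 0 of 16 past it, 5 at an unadjusted p under 0.05, and a median of -0.47.

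Of the 14 arginine and polyamine genes 6 passed the filter. The single call among them was Slc7a2, which encodes a cationic amino acid transporter that brings arginine into cells, and 0 fell. Slc7a2 stood at 396 CPM in Arg1-positive cells and 0 CPM in C1q macrophages at 8 weeks with PBMC-sec, 72.3 against 0 CPM at 52 weeks untreated, and 66.2 against 10.6 CPM at 52 weeks with PBMC-sec. The values did not overlap, but like Fn1 the gene passed the filter through the Arg1-positive sums alone, so no fitted difference is given. A single cell held 93.3% of the Slc7a2 UMIs at 8 weeks with PBMC-sec. Odc1, which encodes the ornithine decarboxylase that starts polyamine synthesis, was 924 against 523 CPM, 881 against 761 CPM and 1670 against 1048 CPM, with overlap (log2 0.70, adjusted p = 0.261, same test). Nos2 was detected in 27 of 129 Arg1-positive cells (20.9%) and in 0.35% of keratinocytes and 28.1% of fibroblasts (median 5093 UMIs). Its summed level in Arg1-positive cells was 0 CPM at 8 weeks with PBMC-sec and 99 CPM untreated, 482 CPM at 26 weeks with PBMC-sec and 0 CPM untreated, and 229 CPM at 52 weeks with PBMC-sec and 96.3 CPM untreated. Retnla, the classic interleukin-4 target beside Arg1 in mouse macrophages, was detected in only 8 of the 129 cells.

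Against Arg1-negative myeloid cells no gene passed the threshold, although 2 came close. In the same 3 libraries (116 against 72 cells) 1910 genes were tested, and 0 (0.0%) passed an adjusted p of 0.05 in edgeR's quasi-likelihood test with Benjamini-Hochberg adjustment, with a smallest adjusted p of 0.0508. An unadjusted p under 0.05 was reached by 296 genes (15.5%), of which 187 were higher (9.79%). DESeq2 called 20, of which 16 were higher and 4 lower. Without the 8-week PBMC-sec library edgeR called 158 genes, and without the 52-week PBMC-sec library 7. This comparison and that with C1q macrophages share the Arg1-positive sums and 44 of the cells set against them.

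The genes nearest the threshold were Acod1 and Gpnmb. Acod1 stood at 1400 CPM in Arg1-positive cells and 455 CPM in Arg1-negative myeloid cells at 8 weeks with PBMC-sec, 1007 against 249 CPM at 52 weeks untreated, and 1571 against 593 CPM at 52 weeks with PBMC-sec. Gpnmb, a gene of lipid-laden and lysosome-rich macrophages, was 211 against 814 CPM, 698 against 2501 CPM and 288 against 1448 CPM in the same order. Neither gene's values overlapped. The log2 differences were 1.78 ± 0.26 for Acod1 and -1.94 ± 0.26 for Gpnmb, both at an adjusted p of 0.0508 in edgeR's quasi-likelihood test with Benjamini-Hochberg adjustment, and at 0.0043 and 0.0012 in DESeq2. Msr1, which encodes the scavenger receptor A, was 290 against 71.9 CPM, 255 against 8.31 CPM and 209 against 64.1 CPM. It could pass the filter on low counts through the Arg1-positive sums, so its fitted difference and p are not given. Fabp5, a fatty acid carrier gene, was 1215 against 5294 CPM, 1358 against 3523 CPM and 1118 against 2533 CPM, without overlap (log2 -1.43, adjusted p = 0.0755 in edgeR's test).

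All 20 inflammatory genes were tested here too. Of these 0 passed, 17 had an unadjusted p under 0.05, all higher in Arg1-positive cells, 13 were higher in every library (15.7% of all genes were), and their median log2 difference was 1.34 against 0.01 over all genes. Ccl2, which encodes the ligand of Ccr2 that draws monocytes, was 4912 against 2683 CPM, 9489 against 573 CPM and 6968 against 2335 CPM, without overlap (log2 2.23, adjusted p = 0.118, edgeR's quasi-likelihood test with Benjamini-Hochberg adjustment). Interferon genes had 7 of 9 tested at an unadjusted p under 0.05, all higher, with a median of 1.19. Lipid and lysosome genes had 8 of 17, of which 1 was higher, with a median of -0.50, and class II genes 3 of 4, of which 0 were higher, with a median of -1.40. None of these passed by adjusted p. Slpi, at 1901 against 2539 CPM, 2765 against 648 CPM and 4613 against 1336 CPM, overlapped and ran the other way at 8 weeks.

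Only 27 Arg1-negative myeloid cells had 10 or more Il1b UMIs, and the comparison with these Il1b-rich cells rested on 2 libraries (PBMC-sec at 8 and 52 weeks, 74 against 18 cells). Of 502 genes tested, 0 (0.0%) passed in edgeR's quasi-likelihood test, 27 (5.38%) lay under an unadjusted p of 0.05, 17 of them higher (3.39%), and 2 were called by DESeq2. Of 7 macrophage markers tested 2 were higher in every library (22.3% of all genes were). With so few cells and libraries this does not show that the populations act alike.

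Within Arg1-positive cells at 52 weeks, those with a C1q UMI and those without differed in both libraries. The split used C1qa, C1qb and C1qc, and the 1 cell richest in keratinocyte RNA was left out. With PBMC-sec there were 33 cells with a C1q UMI (median 5631 UMIs) and 28 without (3466 UMIs), and in untreated skin 29 with (3958 UMIs) and 13 without (3945 UMIs). The depths differed with PBMC-sec and hardly in untreated skin. No test was made, since cells of 1 library are not replicates.

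Macrophage genes were higher in the cells with C1q. Pf4 was 11714 CPM with C1q and 2469 CPM without in the PBMC-sec library, and 8228 against 4474 CPM in the untreated library. Mrc1 was 419 against 85.1 CPM with PBMC-sec and 358 against 88.1 CPM untreated, and Folr2 598 against 201 CPM and 292 against 17.6 CPM. Il10, which encodes an anti-inflammatory cytokine, was 380 against 69.7 CPM with PBMC-sec and 497 against 211 CPM untreated, and Odc1 2226 against 1122 CPM and 1074 against 370 CPM. Each pair had separate 95% Poisson intervals, which cover counting error only.

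Inflammatory genes were divided. Ccl2 was higher in the cells with C1q, at 8292 CPM with C1q and 6431 CPM without in the PBMC-sec library, and 10866 against 5831 CPM in the untreated library, with separate intervals. Il1b was 7040 against 6934 CPM with PBMC-sec, where the intervals overlapped, and 2002 against 2836 CPM untreated. Il1a was 1397 against 1378 CPM with PBMC-sec and 1001 against 1180 CPM untreated, with overlapping intervals in both libraries. Other inflammatory genes were higher in the cells without C1q. Tnf was 1802 CPM with C1q and 4729 CPM without in the PBMC-sec library, and 1830 against 4369 CPM in the untreated library. Ccl4 was 12159 against 27009 CPM with PBMC-sec and 10289 against 26494 CPM untreated, Slpi 2745 against 8606 CPM and 2035 against 4703 CPM, and Il6 240 against 929 CPM and 457 against 881 CPM. Cxcl2, which encodes a neutrophil attractant, was 20634 against 40212 CPM with PBMC-sec and 22382 against 28890 CPM untreated. Spp1, the osteopontin gene, was 1584 against 1927 CPM with PBMC-sec, but 617 against 3241 CPM untreated. Clec4d did not follow the split, at 1161 against 1145 CPM with PBMC-sec and 968 against 951 CPM untreated. Arg1 itself was 2907 against 1648 CPM with PBMC-sec and 1810 against 2396 CPM untreated, so its order turned round between the libraries.

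**Figure D4:**
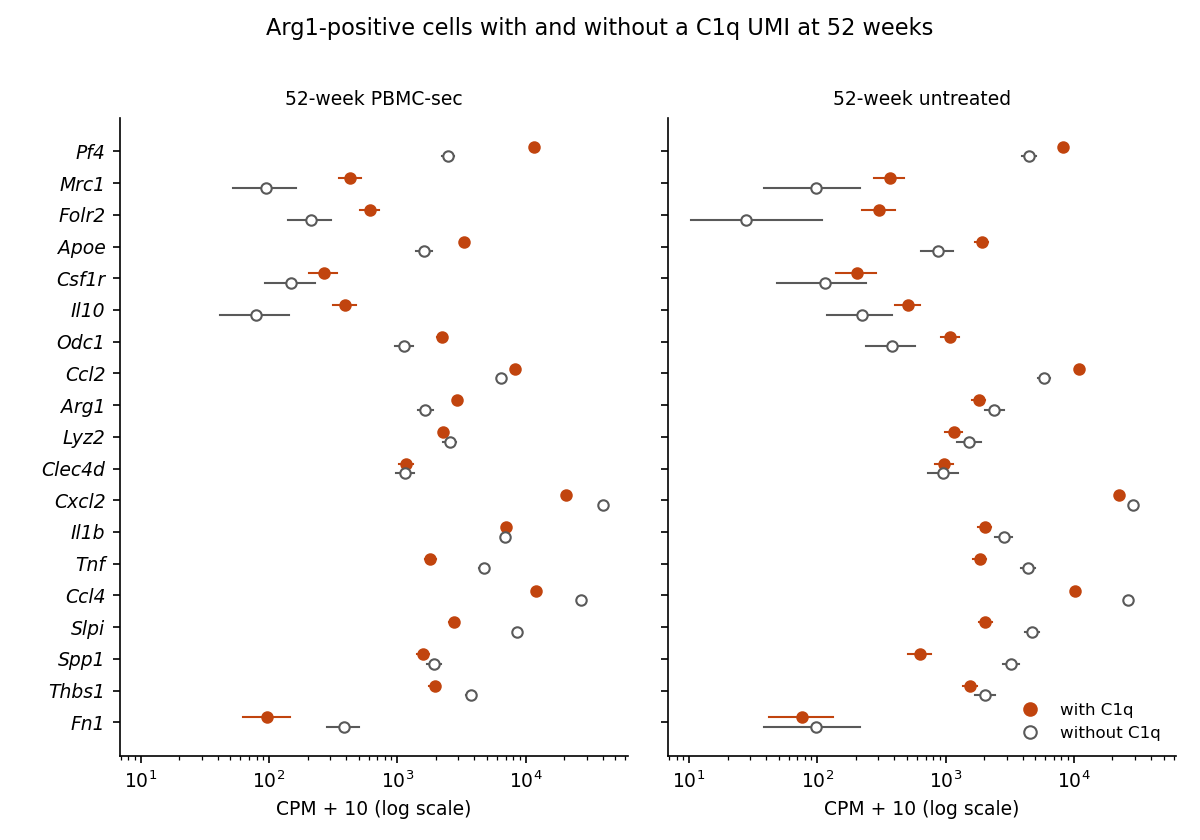
Levels as CPM + 10 on a log axis in 52-week Arg1-positive cells with a C1q UMI (filled) and without (open), in the PBMC-sec library on the left and the untreated library on the right, with 95% Poisson intervals that cover counting error. Pf4, Mrc1 and Folr2 lie to the right in cells with C1q, Tnf, Ccl4 and Slpi in cells without, and Clec4d lies at about the same level in both.

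PBMC-sec and untreated skin could be compared within Arg1-positive cells at 52 weeks only, with 62 against 42 cells and 1 library each, so the difference has no replicate check. Of 778 genes with at least 20 UMIs and 200 CPM in either sum, 60 were 2-fold or more higher with PBMC-sec (7.71%) and 38 lower (4.88%). The median log2 ratio of all 778 was -0.21. The 10 genes with the largest ratio, among them Lor, Lce3d and Sprr2d, were genes of cornified keratinocytes whose UMIs came from 1 Arg1-positive cell in which keratinocyte genes made up 4.26% of UMIs. Without that cell 766 genes remained above the minimum, 73 of them past 2-fold (9.53%), 44 higher (5.74%) and 29 lower (3.79%), with a median of -0.14. Values of the 20 genes in the plot by treatment leave that cell out, and those of the other genes and of the lists keep it.

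Akr1b3, which encodes the aldose reductase that turns glucose into sorbitol, was at 1959 CPM (95% Poisson interval 1817 to 2109) with PBMC-sec and 62.6 CPM (33.3 to 107) untreated, a 31.3-fold ratio, with UMIs in 34 cells against 10. It lies on chromosome 6 at 34302434 to 34317478. Fxyd2, which encodes a regulatory subunit of the sodium pump, was at 935 CPM (837 to 1041) with PBMC-sec and 48.2 CPM (23.1 to 88.6) untreated, a 19.4-fold ratio, in 34 cells against 3. Both genes were higher with PBMC-sec in other cells as well. Over all other cells of the same libraries, Akr1b3 was 676 CPM with PBMC-sec and 39.3 CPM untreated, and Fxyd2 30.8 against 3.67 CPM. These other cells include the remaining myeloid cells. In C1q macrophages Akr1b3 was 314 against 86.8 CPM and Fxyd2 298 against 40.0 CPM, and in Arg1-positive cells low in Lyz2 Akr1b3 was 460 against 47.2 CPM and Fxyd2 414 against 14.1 CPM. Arg1-positive cells at 8 weeks with PBMC-sec held 819 CPM of Akr1b3 and 2667 CPM of Fxyd2. The iron carrier gene Trf was 296 CPM with PBMC-sec and 14.5 CPM untreated in Arg1-positive cells, in 23 cells against 3, while in C1q macrophages it was 63.9 against 20 CPM and in Arg1-negative myeloid cells 58.8 against 66.5 CPM.

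Several large ratios rested on few cells. Retnla had 252 UMIs with PBMC-sec and 0 untreated (703 CPM, at least 48.7-fold higher against a floor of 3 UMIs over the untreated cells), but these came from 7 cells, of which 1 held 50% of them. Csf1, Ptx3, Mmp3 and Cald1 had 88.1%, 100%, 92.1% and 95.8% of their PBMC-sec UMIs in 1 cell. Saa3, an acute-phase gene, was 773 against 111 CPM.

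Among the inflammatory genes Il1b was 6388 CPM (6140 to 6643) with PBMC-sec and 2230 CPM (2032 to 2443) untreated, a log2 ratio of 1.52, with UMIs in 53 of 62 cells against 27 of 42. It was higher with PBMC-sec also in C1q macrophages, at 2357 against 247 CPM, and in Arg1-negative myeloid cells, at 1411 against 366 CPM. Tnf at 2627 against 2524 CPM, Ccl4 at 16149 against 14721 CPM and Cxcl2 at 25760 against 24162 CPM stood close to each other with PBMC-sec and untreated. Of 19 inflammatory genes with enough UMIs 2 were 2-fold or more higher and 0 lower, with a median of 0.13. Of 9 interferon genes 0 were higher and 3 lower, with a median of -0.50. Of all 778 genes 7.71% were higher and 4.88% lower by that measure, with a median of -0.21. Isg15 was 2915 against 4056 CPM.

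Lower with PBMC-sec were the immediate early genes Egr1, at 8.37 CPM with PBMC-sec and 241 CPM untreated (3 against 50 UMIs), and Fos, at 53.0 against 342 CPM. Immediate early genes are known to be raised by tissue dissociation. Of the 10 with enough UMIs 2 were 2-fold or more lower (4.88% of all 778 genes were), with a median of -0.44. In C1q macrophages Egr1 was 95.8 against 354 CPM and Fos 404 against 667 CPM. Ifit2, an interferon target, was 55.8 against 299 CPM and Bst2, which encodes tetherin, 446 against 1233 CPM. Rgs1, which encodes a brake on chemokine receptor signalling, was 226 against 679 CPM. The keratinocyte gene Lgals7 was 142 against 723 CPM, so that keratinocyte RNA moved with these values. Its part in them was not tested.

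**Figure D5:**
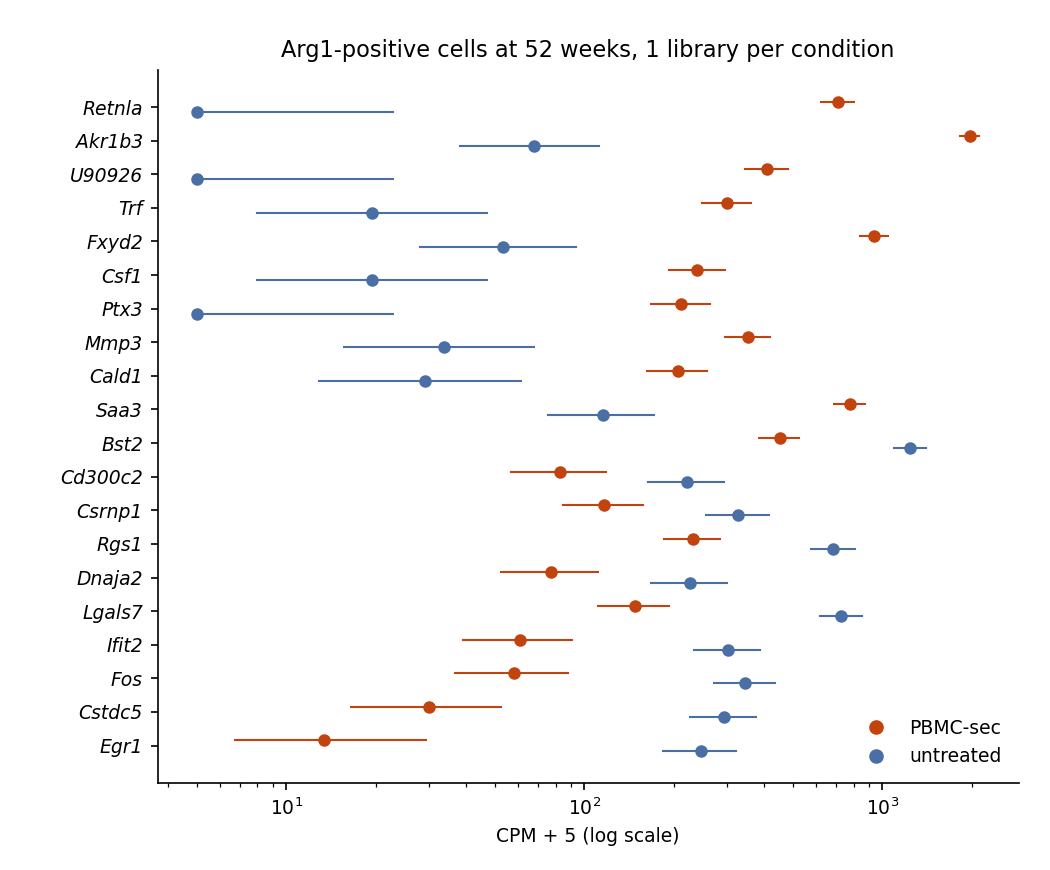
Levels as CPM + 5 on a log axis in 52-week Arg1-positive cells with PBMC-sec and untreated, without the cell richest in keratinocyte RNA, for the 10 genes with the largest ratio each way; bars are 95% Poisson intervals that cover counting error in 1 library each. Akr1b3 lies at 1959 CPM with PBMC-sec and 62.6 CPM untreated, and Egr1 at 8.37 and 241 CPM.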

How the data were processed

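The deposited matrices hold UMI counts per gene and barcode, written by Cell Ranger 5.0.1 per the file headers and not normalized; reads were mapped to mm10 (GRCm38) per the submitters' processing notes. Gene positions come from GENCODE vM21 by Ensembl identifier. Of 32285 genes, all were read in the 6 libraries. Cells were filtered and populations set by raw UMIs as given above. Scrublet's own threshold called 0 to 9 barcodes per library, so the top scores, 0.8% per 1000 barcodes, were removed only as an alternative; 1 Arg1-positive cell was among them.

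UMIs were summed per library and population and tested with edgeR 4.0.16 (R 4.3.3; TMM, filterByExpr, quasi-likelihood test, Benjamini-Hochberg, threshold 0.05), with library as a block because both populations of a library come from the same pool of animals. Each test needed 10 cells per population in at least 3 libraries, otherwise 5. Tests used 2 residual degrees of freedom (1 for Il1b-rich cells). Genes that define a population were left out. Counts were also simulated with a fixed spread and the same profile in all libraries, and only well-counted genes were changed, by a log2 of 2. Of these 99.5% were recovered in the C1q macrophage comparison, with 7 false calls. Recovery was 99.0% for Arg1-negative myeloid cells and 93.3% for Il1b-rich cells. The real libraries differ in age and treatment, so these shares do not give the power of the tests on them. DESeq2 1.42.0, RLE factors, no count filter, thinned cells, other thresholds and leaving out each library were alternatives. Shares carry Clopper-Pearson intervals, summed levels of single libraries Poisson intervals. Clustering of near-identical barcodes used scanpy 1.11.5 and leidenalg 0.10.2, with Python 3.11.15.

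Named genes are the 12 with the largest change each way past the threshold with a mean of at least 100 CPM and, if higher, at most 5 times that level in all other cells. For single libraries they are the 10 largest ratios each way among genes with 20 UMIs and 200 CPM. Members of the marker and pathway lists may also be named. A few genes that meet these rules are not reported here. Genes the text names outside this rule were chosen after their values were seen. The cells, lists and tests were chosen with earlier results of these data known.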

Additional observations from a re-analysis of the deposited data

How the results depend on the processing

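The count of genes past the threshold depended on the processing. Against C1q macrophages the 26 genes became 179 with no filter on low counts, 85 without cells in which keratinocyte genes exceeded 2% of UMIs, 174 with no Lyz2 condition and 5 with no Lyz2 condition in libraries with at least 5 cells. They became 0 without the library block, with a smallest adjusted p of 0.103 in edgeR's quasi-likelihood test. Leaving out 1 library gave 0 to 92, and RLE factors gave 26, DESeq2 35 and thinned cells 34. Against Arg1-negative myeloid cells the 0 genes became 158 with no filter, 20 with DESeq2, 15 with at least 4 Arg1 UMIs, 2 with at most 2 UMIs of Krt5 and Krt14, 1 in libraries with at least 5 cells, 3 with 1 or more Lyz2 UMIs and 1296 with no Lyz2 condition, 0 without the block (190 at an unadjusted p under 0.05 in edgeR), and 0 to 158 on leaving out 1 library. Against Il1b-rich cells the 0 genes became 2 with RLE factors, 22 with no filter, 13 without the keratinocyte-rich cells and 2 with DESeq2; leaving out a library was not possible, since 1 would remain. The cause was not tested in any of these. Against Arg1-negative myeloid cells, 2 settings also changed the libraries used. The fits with at least 4 Arg1 UMIs (86 against 83 cells) and with at most 2 UMIs of Krt5 and Krt14 (104 against 58 cells) used 4 libraries. Their minimum was 5 cells per population, whereas the main fit used 3 libraries with a minimum of 10. Each change of the Lyz2 condition also required Tyrobp or Fcer1g of the Arg1-positive cells. In the comparison with Arg1-negative myeloid cells, each such change applied to both populations. With no Lyz2 condition the test set 354 cells against 842 in 4 libraries, instead of 116 against 72 in 3. The 842 were Arg1-negative cells with Tyrobp or Fcer1g at any Lyz2 level, a different population from that described above.

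Thinning moved the 8-week shares to 0.110% with PBMC-sec and 0% untreated, the 26-week shares to 0.0572% with PBMC-sec and 0% untreated, and the 52-week shares to 0.375% with PBMC-sec and 0.324% untreated. With at least 4 Arg1 UMIs the 52-week shares were 0.889% with PBMC-sec and 0.787% untreated. With 1 or more Lyz2 UMIs, and Tyrobp or Fcer1g required as well, they were 1.5% with PBMC-sec and 1.79% untreated, which turned their order round. With no Lyz2 condition and the same requirement the shares were 3.23% with PBMC-sec and 4.34% untreated. The alternatives on Lyz2 and on the 2% keratinocyte limit, DESeq2 for C1q macrophages and Il1b-rich cells, and for C1q macrophages thinning and the fit without block, were chosen after seeing the data. Tests of PBMC-sec across ages, with their alternatives, were not run, as only 1 age had enough cells.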

Other observations

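A larger set of myeloid cells carried Arg1 with little or no Lyz2. These 243 cells had at least 2 Arg1 UMIs, at most 1 Lyz2 UMI, Tyrobp or Fcer1g, and none of the excluded genes; 99 came from the 52-week PBMC-sec library and 118 from the 52-week untreated library. Their median depth was 2884 UMIs, against 3866 in the 129 Arg1-positive cells that also met the Lyz2 threshold. Summed macrophage markers were 6564 CPM in the Lyz2-low cells, against 12606 CPM in the Lyz2-positive ones, and classical monocyte markers 855 against 802 CPM. Pf4 was 4147 against 7446 CPM and C1qb 252 against 594 CPM. Slpi was 6536 against 3779 CPM, Cxcl2 38770 against 25966 CPM and Thbs1 4080 against 2172 CPM, while Clec4d was 994 against 1024 CPM. Both sets were cut by Lyz2, and no test was made between them.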
